A study of Arabidopsis thaliana with 6 samples.

Results

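Peroxiredoxins are small thiol enzymes that reduce hydrogen peroxide and organic peroxides. The family in Arabidopsis was followed here through 9 nuclear genes, chosen by their locus identifiers from the 27629 entries of the count files: TPX1 (AT1G65980), TPX2 (AT1G65970), PRXIID (AT1G60740), PRXIIE (AT3G52960), PRXIIF (AT3G06050), PRXQ (AT3G26060), 2-CysA (AT3G11630), 2-CysB (AT5G06290) and PER1 (AT1G48130). All 9 were listed in every library, and 7 of them had reads in all 6 libraries and passed the filter on low counts. The other 2, PRXIID and PER1, had 0 counts in most libraries. RNA was taken from young flower buds of the Col ecotype, with anthers of stages 6 to 9, from plants grown in a greenhouse at 23 °C under 16 h of light and 8 h of dark. The wild type gave 3 libraries, and 3 came from plants carrying BnA9::BnMAGL8.1, in which the tapetum promoter BnA9 drives a monoacylglycerol lipase-like gene of Brassica napus that the study also calls BnaC.MAGL8.a. Both genotypes were otherwise Col plants without a further allele or treatment in the labels. The number of independent transgenic lines and of plants behind each library is not given in the sources used here, and the study calls the replicates biological.

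In a peroxiredoxin, a cysteine of the active site is oxidized by the peroxide and is then reduced again by a thiol partner, usually a thioredoxin, a glutaredoxin or the plastid NADPH-thioredoxin reductase NTRC. Plant peroxiredoxins fall into 4 types, 1-Cys, 2-Cys, Q and type II. The 2-Cys pair, PRXQ and PRXIIE act in plastids, PRXIIF in mitochondria, TPX1 and its close copies TPX2 and PRXIID in the cytosol, and PER1, the 1-Cys type, in nuclei and cytosol of seed cells. In anthers, peroxide levels are followed because the death of the tapetum, the cell layer that feeds the pollen, is tied to reactive oxygen species. The comparison of genotypes asks whether transcripts of the family differ in buds in which the lipase-like gene is driven in the tapetum.

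Library totals lay between 13519945 and 14729927 counts, and 99.9% of them fell in the 18642 genes tested. No wild type library had a read of the transgene (0 counts), and transgenic replicates 1, 2 and 3 had 5552, 853 and 9594 of its reads, a range of 11.0-fold in CPM, the counts scaled to library size. Of the defining markers, CAB1 of green tissue, AMS of the tapetum and CRA1 of seeds had counts in all 6 libraries. CRA1 had 6 to 166 counts. VGD1 of late pollen had 0 counts in transgenic replicate 1 and 2 to 92 counts in the other 5 libraries. DYT1, another tapetum gene, was listed at 0 in all 6. Wild type replicate 3 stood apart in its clock genes: the morning gene LHY was at 32.4 CPM there against 0.143 to 6.48 CPM in the other 5 libraries, and the evening gene TOC1 at 23.3 CPM against 43.0 to 101 CPM. Buds are mixed tissue, so fewer cells of a type and less RNA per cell cannot be told apart.

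The 3 cytosolic type II genes are near-identical, and their sequences are shown because the counts of TPX2 and PRXIID depend on how reads are divided among them. TPX1 lies at chr1:24559253-24560980 and TPX2 at chr1:24557372-24558322, both on the minus strand and 930 bases apart, and PRXIID lies on the same chromosome at chr1:22360977-22362003 on the plus strand (TAIR10.1 annotation of RefSeq; the submitters' processing notes name TAIR10). Each has 489 coding bases in 3 coding exons. Over these, TPX1 was 91.6% identical to TPX2, with 41 differences, and 91.2% identical to PRXIID, with 43 differences. TPX2 and PRXIID were 96.3% identical, with 18 differences. The coding bases 121 to 183 hold the codon of the active-site cysteine, residue 51. They are given below as spliced 5′ to 3′ sequence, from chr1:24560363-24560633 for TPX1, chr1:24557930-24558109 for TPX2 and chr1:22361247-22361413 for PRXIID, where capitals mark the cysteine codon in TPX1 and, in the other two, the bases that differ from TPX1 (7 in TPX2 and 6 in PRXIID).
TPX1: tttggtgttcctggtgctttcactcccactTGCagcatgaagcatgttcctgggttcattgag
TPX2: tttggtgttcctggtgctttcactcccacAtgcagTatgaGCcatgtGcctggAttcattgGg
PRXIID: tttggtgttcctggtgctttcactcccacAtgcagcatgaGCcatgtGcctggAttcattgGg

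The longest run common to TPX1 and TPX2 was 55 bases, coding bases 95 to 149, and PRXIID holds the same run. TPX2 and PRXIID share a longer run of 83 bases from the start codon on.
TPX1, TPX2 and PRXIID: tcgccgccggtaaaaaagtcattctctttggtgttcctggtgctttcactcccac
TPX2 and PRXIID: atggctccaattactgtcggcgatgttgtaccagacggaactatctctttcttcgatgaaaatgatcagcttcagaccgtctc

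Stretches of 50 exon bases were then compared with the exons of all other genes on both strands. The 50 bases were a setting and not the length of the reads. Longer reads would be shared less often between the type II copies. Only 0.438% of the stretches of TPX1 were found in another gene. In TPX2 the share was 72.4%, and a stretch can be found in more than 1 gene: 12.2% were found in PRXIID, 0.872% in TPX1, and 45.1% in GAD2, a glutamate decarboxylase gene on the opposite strand whose exons cover 359 bases, or 48.7%, of the exon bases of TPX2. The antisense RNA gene AT1G08803 held 22.1% of the stretches, some of them also in PRXIID, and has no row in the count files used here. Whether the authors' counting used strand or kept reads that map to several places is not given in the sources used here, so the counts of TPX2 and PRXIID are uncertain. In the 2-Cys pair, 84.1% of the aligned coding bases were identical with no run over 38 bases, and no stretch of 50 bases was shared between them. 2-CysA shared 10.9% of its stretches with AT3G11620, an overlapping gene on the opposite strand, which was at 6.98 CPM in the wild type and 6.85 CPM in the transgenic plants. PRXIIE, PRXIIF, PRXQ, 2-CysB and PER1 shared none.

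Levels were compared between genes as CPM per kb of exon. In wild type buds, 2-CysA was the highest member, at 483 ± 68.3 CPM per kb (SD, n = 3). PRXQ at 336 ± 77.7, PRXIIE at 336 ± 84.7 and TPX1 at 294 ± 20.8 CPM per kb followed, and among these 3 the ranges of neighbours overlapped. The lowest library of 2-CysA, at 420 CPM per kb, was above the highest of PRXQ (415) and below the highest of PRXIIE (427). Below them, with ranges apart from the gene above, were 2-CysB at 172 ± 22.0 and PRXIIF at 73.3 ± 10.2 CPM per kb. TPX2 stood at 1.33 ± 0.248 CPM per kb, 55.1-fold below PRXIIF. PER1 and PRXIID had reads in 1 wild type library each, at 2.51 and 0.169 CPM per kb, and the range of PER1 overlapped those of TPX2 and PRXIID, which were apart from each other. In the transgenic plants the order of the means of the first 7 was the same, except that TPX1 stood above PRXIIE when the longest transcript was taken as the length (342 against 330 CPM per kb, with overlapping ranges). Over all exons, 2-CysA was at 586 ± 46.2, PRXQ at 446 ± 38.7 and TPX2 at 4.55 ± 1.28 CPM per kb. PRXQ was apart from PRXIIE there (330 ± 19.7), whereas PRXIIE and TPX1 (304 ± 19.4) overlapped.

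**Figure D1:**
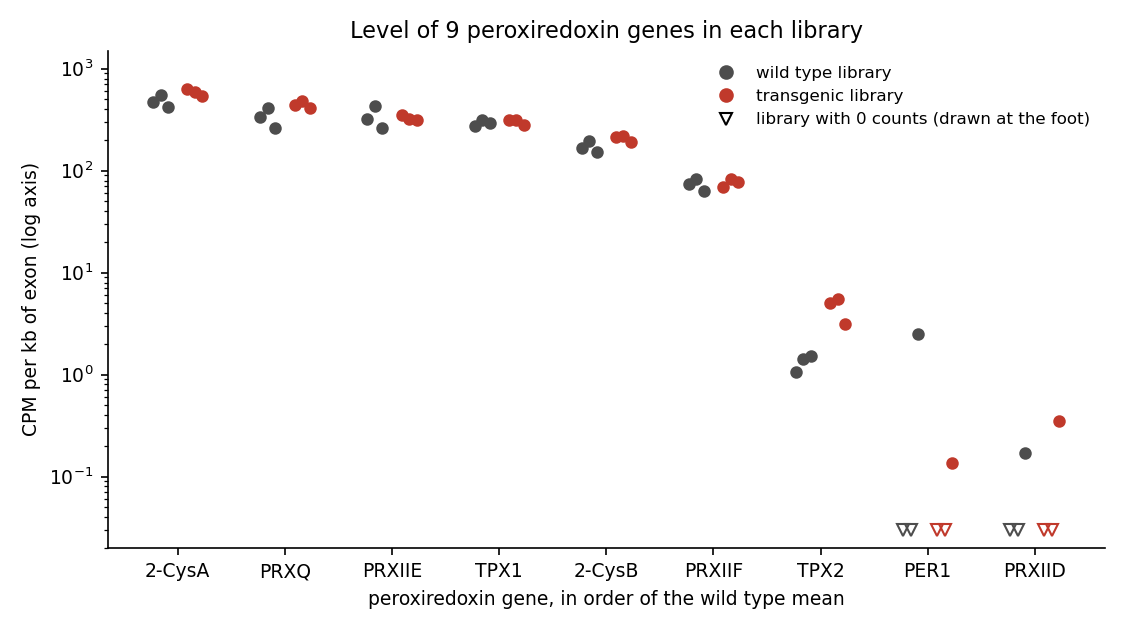
Level of each of the 9 peroxiredoxin genes in each library, as CPM per kb of exon on a log axis, in order of the wild type mean. Each filled point is 1 library (wild type grey, transgenic red) and open triangles at the foot are libraries with 0 counts. Of the 7 genes with reads in all 6 libraries, TPX2 lies far below the other 6 and is the 1 whose genotypes are separate.

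The 4 plastid genes held most of the family's transcripts. Their share of the summed CPM per kb was 78.8%, 80.0% and 75.1% in wild type replicates 1, 2 and 3, and 80.8%, 80.0% and 80.1% in the transgenic replicates. The summed level itself was 1696 ± 272 CPM per kb in the wild type and 1954 ± 122 CPM per kb in the transgenic plants (SD, n = 3 each). These ranges overlapped, from 1457 to 1992 and from 1814 to 2030 CPM per kb.

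Between genotypes, no member was called. In edgeR's quasi-likelihood test 0 of the 7 members tested had a Benjamini-Hochberg adjusted p under 0.05, where 0.0161% of all genes tested did. DESeq2 and voom with quality weights also called 0 of the 7, where they called 0.302% and 0% of all genes. Only 1 of the 7, TPX2, had an unadjusted p under 0.05, where 6.84% of all genes did. TPX2 was also the 1 of 7 members whose genotypes did not overlap, against 12.2% of all genes (5.57% with every transgenic library above and 6.62% with every one below the wild type). The estimated log2 fold change (transgenic minus wild type) was above 0 in 6 of the 7 members, against 47.9% of all genes. The transgene itself was not called by edgeR, with a log2 fold change of 15.4 and an edgeR adjusted p of 0.281. A gene that was not called is therefore not shown to be unchanged.

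**Figure D2:**
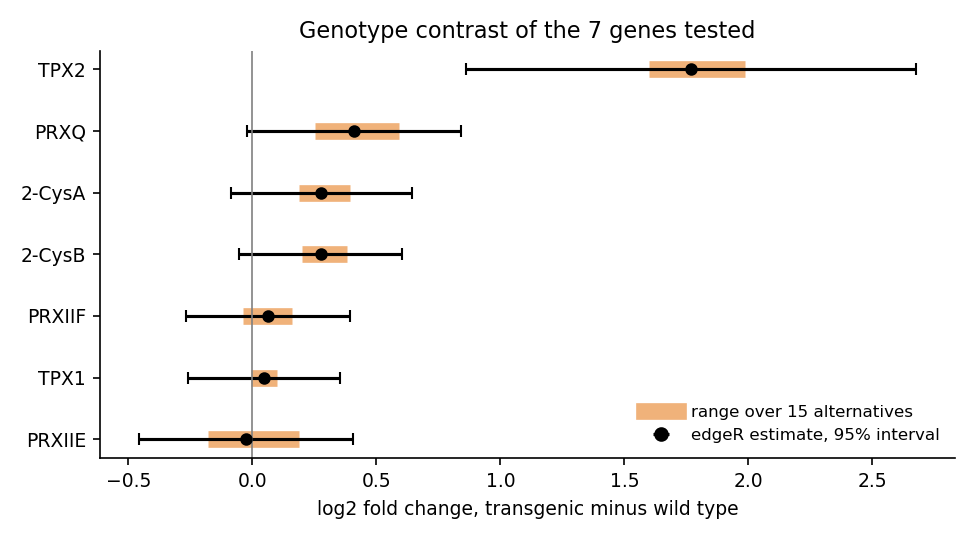
Log2 fold change of the 7 peroxiredoxin genes tested, transgenic minus wild type. Points and bars are the edgeR estimate and its 95% interval, and the orange band is the range of the estimate over 15 alternative fits. The interval of TPX2, 0.86 to 2.68, lies above 0, and those of the other 6 include 0.

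Of the cytosolic genes, TPX1, also named PRXIIB, encodes the main cytosolic type II enzyme. The wild type replicates 1, 2 and 3 held 361, 415 and 393 CPM of it, and the transgenic replicates 417, 418 and 373 CPM. The ranges overlapped almost wholly. Its log2 fold change was 0.05 (SE 0.13; 95% interval -0.26 to 0.35; edgeR adjusted p = 0.963).

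TPX2, also named PRXIIC, had 12, 14 and 16 counts in the wild type replicates and 46, 56 and 32 counts in the transgenic replicates. That is 0.773, 1.05 and 1.12 CPM against 3.69, 4.08 and 2.29 CPM, so the lowest transgenic library was above the highest wild type library. The means were 0.981 ± 0.182 and 3.35 ± 0.941 CPM (SD, n = 3 each). The log2 fold change was 1.77 (SE 0.40), a fold of 3.41 with a 95% interval of 1.82 to 6.39. Its unadjusted p in edgeR was 0.0018 and its adjusted p over the 18642 genes was 0.551, so it did not pass the test. In DESeq2 the unadjusted p was 0.00036 and the adjusted p was 0.0877. Fold changes of at least this size in either direction were estimated for 0.445% of the genes tested. TPX2 passed the filter level of 0.727 CPM in all 6 libraries. The study, which called genes by the unadjusted p of DESeq2, lists this gene among those that changed in the same samples, so its direction is not independent evidence.

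The contrast of TPX2 with its neighbour was read within each library, where scaling between libraries cancels. Per kb, TPX2 was 0.386%, 0.455% and 0.511% of TPX1 in the wild type replicates and 1.59%, 1.76% and 1.10% of TPX1 in the transgenic replicates. All 3 transgenic ratios were above the 3 wild type ratios. The mean log2 ratio differed by 1.70, or 3.25-fold, and the exact two-sided permutation test gave p = 0.1, the smallest p that 3 against 3 libraries allow. TPX1 varied only 1.16-fold over the 6 libraries, so the ratio mostly repeats the TPX2 difference and is not separate evidence. As a share of the counts of both genes, TPX2 took 0.284% in wild type replicate 3, the highest of its genotype (exact Clopper-Pearson 95% interval 0.162% to 0.460%), and 0.611% in transgenic replicate 3, the lowest of its genotype (0.418% to 0.861%). These intervals cover counting error only and treat every count as independent. They are too narrow if mates of a pair were counted separately.

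For GAD2, the gene that overlaps TPX2, the wild type replicates gave 138, 144 and 150 CPM and the transgenic replicates 160, 163 and 147 CPM, with a log2 fold change of 0.12 (SE 0.12; edgeR adjusted p = 0.857). The gene beyond TPX1, AT1G65985, was at 0.789 CPM on average in the wild type, with a log2 fold change of 0.44 (SE 0.52). All 6 counts of TPX2 were even. Of the counts from 1 to 20 in each library, 75.5% to 78.0% were even. That range holds the wild type counts of TPX2 but not its transgenic counts. Whether mates of a pair were counted as 1 or 2 is not given, so the fragments behind 42 wild type and 134 transgenic counts may be fewer than these numbers. Transgenic replicate 2, the library with the most TPX2, had the fewest transgene counts. Of 12 tapetum markers 11 were tested. All 11 had a lower estimate in the transgenic plants, as did 9714 of the 18642 genes tested. Of the 11, 0 were called (0.0161% of all genes were). AMS and CYP704B1 had an unadjusted edgeR p under 0.05 (4.26% of all genes did in that direction). AMS had every transgenic library below the wild type (6.62% of all genes did), with a log2 fold change of -0.77 (SE 0.18). The summed level of the 12 markers was 1117 to 2417 CPM in the wild type and 667 to 1615 CPM in the transgenic libraries. The part of these values in the TPX2 difference was not tested.

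**Figure D3:**
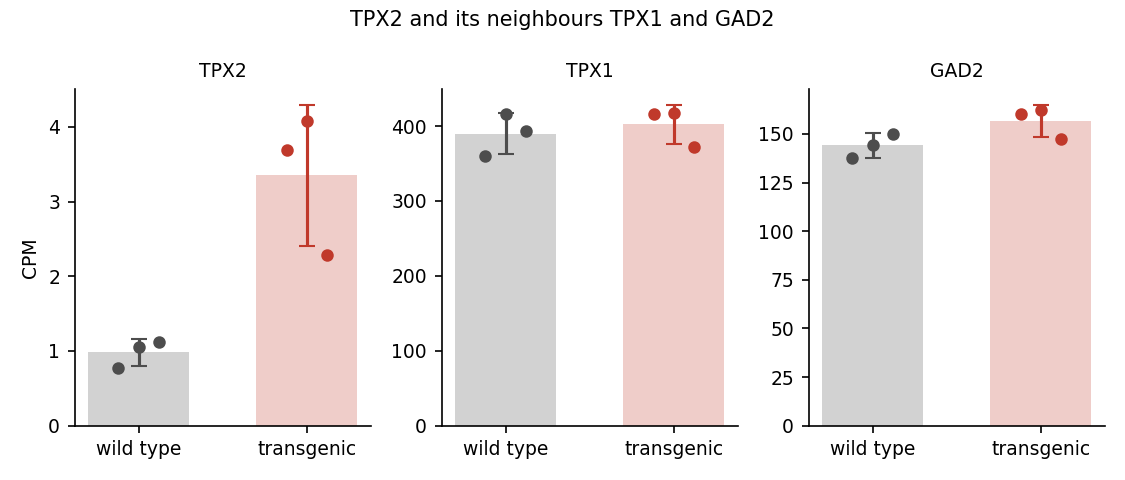
Level of TPX2, TPX1 and GAD2 in CPM, each on its own linear axis from 0. Points are libraries, bars the mean and whiskers the SD of 3 libraries. The 3 transgenic libraries of TPX2 (2.29 to 4.08 CPM) are above its wild type libraries (0.773 to 1.12 CPM), and TPX1 and GAD2 overlap between genotypes.

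PRXIID, the closest copy of TPX2, was at the limit of detection. It had 0, 0 and 2 counts in the wild type and 0, 0 and 4 counts in the transgenic replicates. A count of 3, the limit that a count of 0 allows, is 0.193 to 0.240 CPM in these libraries, so no difference was detectable at this depth. The 10 late pollen markers were also low, with a summed level of 43.8 CPM in wild type replicate 1 and 3.49 to 12.6 CPM in the other 5 libraries. All 4 that were tested had a lower estimate in the transgenic plants, as did 9714 of the 18642 genes tested. Of them, 0 were called (0.0161% of all genes were). Of these 4, 1 had an unadjusted edgeR p under 0.05 (4.26% of all genes did in that direction).

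Among the plastid genes, PRXQ, which acts as a monomer beside the thylakoids, had the largest estimate. Its levels were 425, 528 and 331 CPM in the 3 wild type libraries, and 564, 619 and 521 CPM in the transgenic ones. Only wild type replicate 2 reached into the transgenic range. The log2 fold change was 0.41 (SE 0.19; 95% interval -0.02 to 0.84), with an edgeR unadjusted p of 0.060 and an adjusted p of 0.722. Without wild type replicate 3, the lowest library, the estimate was 0.25.

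The 2-Cys pair, the most abundant stromal peroxiredoxins and substrates of NTRC, also had estimates above 0. Levels of 2-CysA were 556, 654 and 494 CPM in the wild type, against 742, 690 and 634 CPM in the transgenic plants. Its log2 fold change was 0.28 (SE 0.16; 95% interval -0.09 to 0.64; edgeR adjusted p = 0.755). Those of 2-CysB were 240, 284 and 222 CPM, against 310, 317 and 275 CPM. Its log2 fold change was also 0.28 (SE 0.14; 95% interval -0.05 to 0.60; edgeR adjusted p = 0.743). In both genes wild type replicate 2 overlapped the lowest transgenic library, and neither difference passed the test.

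PRXIIE, the type II enzyme of plastids, had an estimate near 0. Wild type libraries gave 371, 497 and 303 CPM and transgenic libraries 409, 375 and 365 CPM, so the transgenic libraries lay inside the wild type range. The log2 fold change was -0.03 (SE 0.19; 95% interval -0.46 to 0.40; edgeR adjusted p = 0.988). PRXIIF, the mitochondrial member, measured 91.4, 102 and 76.7 CPM in wild type buds, against 85.3, 102 and 94.5 CPM in transgenic buds, and the ranges overlapped. Its log2 fold change was 0.06 (SE 0.15; 95% interval -0.27 to 0.39; edgeR adjusted p = 0.950).

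PRXQ and the 2-Cys pair varied together from library to library. Over the 6 libraries, the Pearson correlation of log2 CPM was 0.974 between 2-CysA and 2-CysB, 0.972 between PRXQ and 2-CysB and 0.950 between PRXQ and 2-CysA, whereas it was 0.658 between PRXIIE and 2-CysA. These are descriptions over 6 libraries that share their depth and their genotype difference. Wild type replicate 3 was the lowest library for 5 of the 7 members tested, the 4 plastid genes and PRXIIF. This is the library with the high LHY and low TOC1. Its summed level of 21 green tissue markers, 60463 CPM, was the highest of the wild type, against 47737 and 50753 CPM in replicates 1 and 2. The transgenic libraries ranged from 40978 to 76481 CPM. The markers did not move as one in wild type replicate 3. LHB1B2 and LHCA1 had their highest wild type level there (6263 and 3498 CPM). PSAE-2 and PSAD-1 had their lowest level of all libraries there (325 and 871 CPM). The sum therefore does not rank the libraries by green tissue. Of those 21 markers, 19 had an estimate above 0, against 47.9% of all genes, and 0 were called. Their median log2 fold change was 0.18. The part of green tissue in the plastid values was not tested. With a clock score as a covariate, the log2 fold change was 0.38 for PRXQ (SE 0.16), 0.26 for 2-CysA (SE 0.16) and 0.26 for 2-CysB (SE 0.14), and none of them was called.

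**Figure D4:**
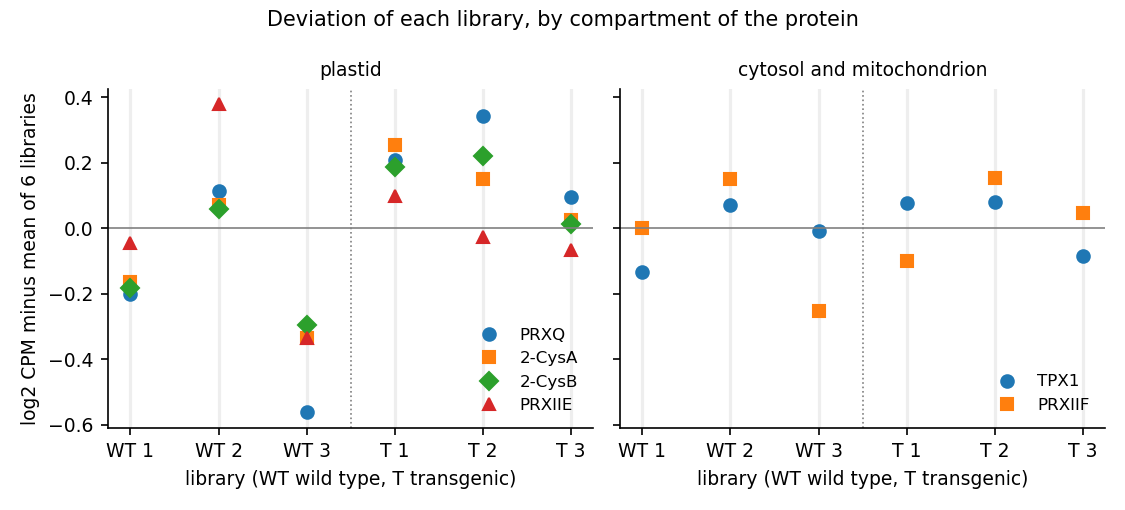
Deviation of each library from the mean of the 6 libraries in log2 CPM, for 4 plastid genes (left) and for TPX1 and PRXIIF (right). WT is wild type, T transgenic, and each marker is 1 gene in 1 library. PRXQ, 2-CysA, 2-CysB and PRXIIE are all lowest in wild type replicate 3, and TPX1 varies least.

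The genes most alike in pattern were sought among 17906 genes by the Pearson correlation of log2 CPM over the 6 libraries. For 2-CysA, the highest member, the 5 most alike were ATCG00630 (r = 0.999), TRXM4 (0.997), AT1G64510 (0.994), RPL4 (0.993) and AT3G54210 (0.993). TRXM4 encodes a plastid thioredoxin and RPL4 a plastid ribosomal protein, and AT1G64510 and AT3G54210 are annotated as ribosomal protein family members. For TPX2 they were PYR1, an abscisic acid receptor gene (0.992), AT4G24810 (0.990), AT3G26395 (0.986), AT3G27570 (0.985) and the cellulose synthase-like gene CSLA01 (0.985). PYR1 measured 22.5, 24.6 and 26.8 CPM in the wild type, against 37.8, 40.4 and 31.5 CPM in the transgenic plants, which is the order of libraries seen in TPX2. These genes were picked for the highest r, and over only 6 libraries some of 17906 genes can reach such values by chance. No test of co-expression was made. TPX2 rests on 12 to 56 counts per library, and ATCG00630 was at only 1.05 to 4.09 CPM.

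PER1 encodes the 1-Cys enzyme of the embryo and aleurone in dry seeds. It had 0, 0 and 38 counts in the wild type and 0, 0 and 2 counts in the transgenic replicates, so 1 library, wild type replicate 3 at 2.65 CPM, held nearly all of its reads. Without that library there were 2 counts in 5 libraries. The 9 seed markers showed the same library: 7 of them were highest in wild type replicate 3, and their summed level was 43.1 CPM there against 1.68 and 2.63 CPM in the other wild type libraries and 1.82 to 6.17 CPM in the transgenic libraries. The defining marker CRA1, a seed storage protein gene, had 166 counts in that library and 6 to 21 counts in each of the other 5 libraries. The part of seed RNA in the PER1 value was not tested, and PER1 gives no comparison between genotypes.

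The partners of the family were read from 6 lists of 69 genes, of which 64 were tested. None was called by edgeR. An estimate above 0 was found in 45 of the 64, against 47.9% of all genes. An unadjusted p under 0.05 was found for 4 in that direction (2.57% of all genes) and for 1 in the other (4.26% of all genes). Every transgenic library was above the wild type in 7 of the 64 (5.57% of all genes) and below it in 1 (6.62% of all genes). The median log2 fold change was 0.13 against -0.01 over all genes tested.

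Thioredoxins reduce the oxidized enzyme. Of 20 tested, 15 had an estimate above 0 (47.9% of all genes did). Of these, 3 had an unadjusted edgeR p under 0.05 (2.57% of all genes did in that direction). TRXH5, a cytosolic h-type thioredoxin, was at 101 ± 23.3 CPM in the wild type and 149 ± 32.9 CPM in the transgenic plants, a log2 fold change of 0.57 (SE 0.21; edgeR adjusted p = 0.720). TRXY2, a plastid thioredoxin of the type that reduces PRXQ, was at 43.2 ± 9.50 and 58.8 ± 7.30 CPM. Every transgenic library was above the wild type, as in 5.57% of all genes, by a small margin (51.01 against 50.99 CPM). TRXM4 had a log2 fold change of 0.37 (SE 0.16) and TRXM2, the thioredoxin with the highest level per kb, one of 0.11 (SE 0.20).

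Of the 8 reductases that pass electrons to thioredoxin or glutathione, 7 had an estimate above 0 (47.9% of all genes did). None had an unadjusted p under 0.05. The 3 with the smallest p were FTRA2 and FTRA1, which encode the variable subunit of ferredoxin-thioredoxin reductase, with log2 fold changes of 0.51 (SE 0.23) and 0.36 (SE 0.17), and the NADPH-thioredoxin reductase gene NTRA with 0.25 (SE 0.14). NTRC, chosen after its values were seen because it is the reductase of the 2-Cys pair, measured 56.1, 55.7 and 54.2 CPM in the wild type, against 60.4, 63.4 and 62.9 CPM in the transgenic plants. The genotypes did not overlap, as in 12.2% of all genes tested, and the log2 fold change was 0.17 (SE 0.12; edgeR adjusted p = 0.782).

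Some glutaredoxins serve the type II enzymes. The list also held glutaredoxins of the CGFS class, GRXS15 and GRXS16 among them. Which of its genes serve a peroxiredoxin was not tested. Of 10 tested, 6 had an estimate above 0 (47.9% of all genes did) and 4 below. GRXS15, a mitochondrial glutaredoxin, measured 36.7, 23.7 and 24.8 CPM in the wild type, against 20.4, 20.9 and 20.2 CPM in the transgenic plants, a log2 fold change of -0.47 (SE 0.19; edgeR adjusted p = 0.722). Every transgenic library was below the wild type, as in 6.62% of all genes, with wild type replicate 1 well above the rest. The plastid glutaredoxin GRXS16 had a log2 fold change of 0.26 (SE 0.14), GRXC3 one of 0.21 (SE 0.14), and GRXC4, the highest per kb, one of -0.16 (SE 0.14).

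Genes that act on the 2-Cys pair were split, with 4 of 7 estimates above 0 (47.9% of all genes). None had an unadjusted p under 0.05. SRX, the sulfiredoxin that repairs over-oxidized 2-Cys peroxiredoxin, was at 22.9 ± 2.26 and 26.3 ± 3.04 CPM (log2 fold change 0.20, SE 0.16). ACHT1, an atypical plastid thioredoxin, was at 10.8 ± 0.676 and 14.1 ± 1.52 CPM (0.39, SE 0.18). Its transgenic libraries were all above the wild type, as in 5.57% of all genes. The values for WCRKC2 and for ROC4, a plastid cyclophilin with the highest level per kb of this list, were 0.19 (SE 0.18) and 0.14 (SE 0.17).

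Other peroxide scavengers were followed beside the family. Of 6 glutathione peroxidase-like genes tested, 2 had an estimate above 0, among them GPX1, whose product is in plastids, at 51.3 ± 9.15 and 70.7 ± 8.58 CPM (log2 fold change 0.46, SE 0.17; edgeR adjusted p = 0.720). GPX2, the highest per kb, and GPX8 had log2 fold changes of -0.14 (SE 0.18) and 0.10 (SE 0.14). In the ascorbate-glutathione cycle 11 of 13 estimates were above 0 (47.9% of all genes). None had an unadjusted p under 0.05. TAPX, the thylakoid ascorbate peroxidase gene, had 0.20 (SE 0.13), APX6 0.25 (SE 0.19) and DHAR2 0.19 (SE 0.14) as log2 fold changes. DHAR1, a dehydroascorbate reductase gene and the highest per kb, spread widely within each genotype, from 985 to 1673 CPM in the wild type and from 962 to 1940 CPM in the transgenic libraries. MDAR3 was at 0 counts in all 6 libraries.

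**Figure D5:**
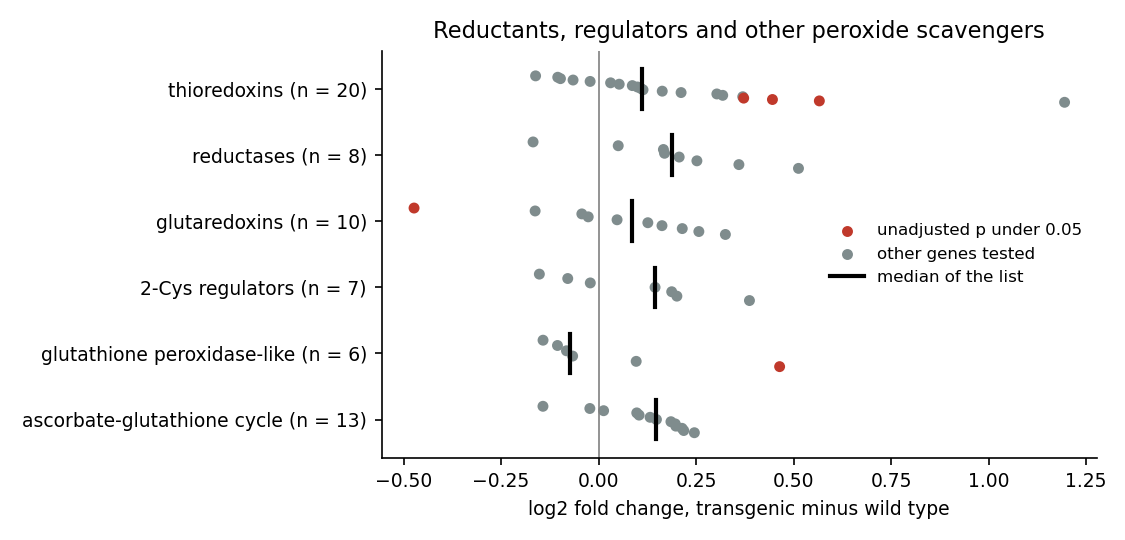
Log2 fold change (transgenic minus wild type) of the partner genes tested, by list. Each point is a gene, red where the unadjusted edgeR p was under 0.05 (5 of 64), and black bars are list medians. Points lie on both sides of 0 in every list, and 45 of the 64 are above it.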

How the data were processed

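RNA of young flower buds was sequenced in 3 wild type and 3 BnA9::BnMAGL8.1 libraries, grouped by the labels. The deposited values are raw counts per gene, which the authors made with Hisat2, on the Arabidopsis genome with the transgene's coding sequence added, and featureCounts. TAIR10 and DESeq2 also stand in the submitters' notes on processing. Versions, strand use and how mates or multiply mapped reads were treated: not given in the sources used here. All per-sample columns were used.

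Genes were kept by edgeR's filterByExpr by genotype (minimum count 10, minimum total 15), scaled by TMM and compared in edgeR 4.0.16 (R 4.3.3) by its quasi-likelihood test, with genotype as the only term and the current rather than the older quasi-likelihood method. Adjusted p-values are Benjamini-Hochberg over the 18642 genes tested, and called means an adjusted p under 0.05. Standard errors came from the fold change and its F statistic. CPM are TMM-scaled, and exon lengths and sequences are from RefSeq's TAIR10.1 genome. Likeness used log2(CPM + 0.5) among genes with a mean CPM of at least 1. The test was also tried on simulated data, with means and dispersions taken from these libraries. The outcome of that trial is not reported here.

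Same-genotype libraries differed by more than sampling noise (chi-square per degree of freedom 15.4 to 56.0), so each counted as 1 replicate. The edgeR p-values weigh the genotype difference against the spread between these libraries, moderated across genes. Whether that spread includes independent transgenic lines is not given, nor is the pool of plants behind each library.

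The alternatives were DESeq2's size factors, no filter, a minimum of 10 counts in each library, DESeq2 1.42.0, voom with quality weights (limma 3.58.1), robust empirical Bayes, a replicate block, a clock score as covariate, transcript length and leaving out each library. The older quasi-likelihood method was also run, first, and its place as an alternative was set after seeing the data. The text names all 9 members, the neighbours of TPX1 and TPX2, the 3 partner genes of smallest p and the highest per kb in each list, LHY, TOC1, the transgene, defining markers, and the 5 genes most alike for TPX2 and the highest member. Members and lists were chosen with earlier results of these data known.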

Additional observations from a re-analysis of the deposited data

How the results depend on the processing

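No member and no partner gene was called in any of the 15 alternative fits. TPX2 kept its direction in all 15, with a log2 fold change of 1.60 to 1.99, an unadjusted p under 0.05 in 15 of 15 and adjusted p-values from 0.0877 (DESeq2) to 0.99958, and PRXQ kept its own at 0.25 to 0.59 with an unadjusted p under 0.05 in 6 of 15. The number of members with an unadjusted p under 0.05 was 1 with edgeR (6.84% of all genes). It was 2 with DESeq2 (5.48%), voom with quality weights (9.31%), robust empirical Bayes (6.8%), the replicate block (5.16%) and the clock score as a covariate (11.1%). It was 1 to 4 with a library left out, the 4 being TPX2, PRXQ, 2-CysA and 2-CysB without wild type replicate 2, where 8.66% of all genes had such a p. Over all genes, 3 were called by edgeR, 62 by DESeq2, 0 by voom, 1 by robust empirical Bayes, 0 with the replicate block, 5 with the clock score and 0 to 5 with a library left out. The estimates near 0 changed sign. With a library left out, TPX1 ranged from -0.0063 (without wild type replicate 1) to 0.10 (without transgenic replicate 3), PRXIIF from -0.039 (without wild type replicate 3) to 0.16 and PRXIIE from -0.18 to 0.19 (without wild type replicate 2), with 0.0083 without transgenic replicate 3. PRXIIE was at 0.0028 with the replicate block. The cause was not tested. With the length of the longest transcript in place of all exons, TPX1 was at 331 rather than 294 CPM per kb in the wild type, still below PRXIIE at 336, and at 342 rather than 304 in the transgenic plants, above PRXIIE at 330. Same-numbered libraries of the genotypes correlated at -0.09, -0.11 and -0.38 in their deviations. These deviations are centred on 3 libraries per genotype and depend on each other. The labels link the libraries only by number, and whether they shared a batch was not tested. The replicate block gave TPX2 1.74 (adjusted p = 0.887) and PRXQ 0.43 (unadjusted p = 0.043) in edgeR. At 12 to 56 counts, TPX2 rests on few reads. PRXIID is below what this depth can compare, and nearly all reads of PER1 came from wild type replicate 3.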
